A study of Mus musculus with 6 samples.

Results

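The 9 long noncoding RNAs described here, in mouse pancreatic islets, are the imprinted transcripts Meg3, Rian, Mirg, H19 and Kcnq1ot1, the nuclear transcripts Malat1 and Neat1, and the small nucleolar RNA (snoRNA) hosts Gas5 and Snhg11. They were taken by gene symbol, and all 9 were found among the 46983 genes of the count table. An imprinted gene is expressed mainly from the chromosome inherited from 1 parent, and several imprinted clusters contain a long noncoding RNA on the opposite parental chromosome to the protein-coding genes. Meg3, Rian and Mirg lie along the maternally expressed strand of the Dlk1-Dio3 domain and carry microRNAs and snoRNAs in their introns and exons, and in islets Meg3 is known as an abundant beta-cell transcript. Neat1 is the scaffold of paraspeckles, nuclear bodies that hold RNA-binding proteins, whereas Malat1 resides in nuclear speckles, where splicing factors gather. Gas5 and Snhg11 are spliced transcripts whose introns release snoRNAs, the guides of ribosomal RNA modification.

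Polyadenylated RNA was measured in 6 libraries of wild-type islets, the endocrine tissue of the pancreas, in which beta cells secrete insulin. Islets had been kept for 24 h at low, non-stimulating glucose (3 libraries) or at high, stimulating glucose (3 libraries), and the comparison asks which transcripts differ between the glucose conditions. The label gives the tissue as pancreas and the cells as islets or beta cells, so each library is a mixture of cell types. The strain, the age and sex of the mice, the glucose concentrations and how many animals gave each library are not stated in the labels. Whether replicate libraries stem from different animals or cultures is not stated either, so every p-value reflects the spread between these samples alone, which may be technical. In such bulk RNA, fewer cells of a type and less RNA per cell cannot be told apart. Counts per gene also do not separate parental alleles or isoforms, so neither imprinting nor the short and long forms of Neat1 were measured. Malat1 and the long form of Neat1 end without a conventional poly(A) tail, and the libraries were made by poly(A) selection.

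Total counts ranged from 10596020 to 15846235 per library. Beta-cell markers were present in every library, with a summed level between 18157 and 40453 CPM (counts scaled to a library of 1e+06, on library sizes scaled by the trimmed mean of M values, TMM). Of 15 tested beta-cell markers, 8 were lower and 1 was higher at high glucose, with a median log2 fold change of -1.28. Duct markers summed to 698 to 993 CPM at low glucose and 3003 to 3410 CPM at high glucose, with 4 of 10 tested higher and 1 lower. Markers of exocrine acinar cells, which make digestive enzymes, took 49.5% to 65.5% of all counts in the low-glucose libraries and 12.9% to 25.5% in the high-glucose libraries, and 29 of 34 tested acinar markers were lower at high glucose. All 12 tested markers of intestinal epithelium were also lower, with summed levels of 2353 to 6541 CPM at low glucose and 164 to 234 CPM at high glucose. Stellate, fibroblast and pericyte markers summed to 336 to 438 CPM at low and 49.6 to 298 CPM at high glucose, with 4 of 12 tested lower and 0 higher. Markers of alpha, delta and PP cells, other endocrine cells, summed to 5679 to 7884 and 3639 to 6431 CPM, with 1 of 13 higher and 1 lower. Over all 13996 genes 13.3% were higher and 14.2% lower. The part of any of these markers in the results below was not tested. Because of this shift the scaling matters: the median log2 fold change (high minus low glucose) over all genes was 0.01 with TMM scaling and 1.16 when counts were divided by library totals. With TMM scaling, 48.4% of the changed genes were higher at high glucose, against 93.0% with library totals and 23.3% when library sizes were set by 20 hormone and secretory granule genes. A log2 fold change from library totals is therefore to be read against the shift of 1.16. Of the 20 hormone and granule genes, 5 were higher and 2 lower with TMM scaling, so scaling by them rests partly on genes that moved.

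The promoter windows of 4 of these genes are shown, chosen by role from those in which at least 1 of the motifs searched was found: the imprinted Meg3 and Kcnq1ot1, the nuclear Malat1 and the snoRNA host Gas5. Each window runs from 250 bases before to 50 bases after an annotated start (RefSeq, GRCm38.p6), 5′ to 3′ on the strand of the gene, and 7 of the 9 genes had an entry; Neat1 and H19 did not. Capitals mark the cAMP response element TGACGTCA, the TATA box TATAAA, the CCAAT box and the pyrimidine start described below, wherever they were found on either strand; the shorter core ACGTG, the only match in Malat1, is left in lower case.
Meg3 (chr12:109540746-109541045, plus strand): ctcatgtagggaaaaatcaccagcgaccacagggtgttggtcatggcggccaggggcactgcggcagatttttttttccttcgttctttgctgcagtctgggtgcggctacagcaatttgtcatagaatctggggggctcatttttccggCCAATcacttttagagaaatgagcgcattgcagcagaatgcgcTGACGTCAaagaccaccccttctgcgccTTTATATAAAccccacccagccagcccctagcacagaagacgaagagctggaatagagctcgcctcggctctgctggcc
Kcnq1ot1 (chr7:143296498-143296797, minus strand): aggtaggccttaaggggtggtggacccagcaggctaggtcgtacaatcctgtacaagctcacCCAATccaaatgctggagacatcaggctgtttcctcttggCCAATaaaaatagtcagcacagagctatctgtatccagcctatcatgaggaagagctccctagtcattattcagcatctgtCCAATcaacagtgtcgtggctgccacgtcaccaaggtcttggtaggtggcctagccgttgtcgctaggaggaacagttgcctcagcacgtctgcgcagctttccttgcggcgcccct
Malat1 (chr19:5802623-5802922, minus strand): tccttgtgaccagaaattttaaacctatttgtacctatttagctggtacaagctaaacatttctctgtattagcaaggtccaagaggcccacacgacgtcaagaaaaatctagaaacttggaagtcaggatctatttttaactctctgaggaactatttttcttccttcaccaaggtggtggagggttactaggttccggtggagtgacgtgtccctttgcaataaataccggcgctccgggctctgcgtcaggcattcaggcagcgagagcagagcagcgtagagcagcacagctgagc
Gas5, second annotated start (chr1:161034916-161035215, plus strand): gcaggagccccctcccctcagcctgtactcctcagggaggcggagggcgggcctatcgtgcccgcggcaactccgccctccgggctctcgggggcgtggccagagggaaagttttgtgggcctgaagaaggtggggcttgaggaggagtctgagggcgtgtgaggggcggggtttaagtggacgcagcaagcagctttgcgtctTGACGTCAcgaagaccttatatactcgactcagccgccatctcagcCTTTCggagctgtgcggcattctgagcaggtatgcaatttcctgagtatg

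Letters of the cAMP response element, the binding sequence of CREB-family factors, were present in the windows shown for Meg3, at position -57 from the start, and for Gas5, at position -46. Meg3 and Gas5 each had another annotated start, whose window, not shown, held none of the motifs searched. TGACGTCA was found on either strand in 1.79% of all 32851 promoter windows in the table. Meg3 also held TATAAA at position -25, overlapping the same letters read on the other strand at -29, and CCAAT at -100. TATAAA occurred in 13.6% and CCAAT in 37.4% of all windows. Kcnq1ot1 held CCAAT at -188, -148 and -67, and the window of Mirg, not shown, held it at -184. The core ACGTG bound by hypoxia-inducible factors, which also lies within the E-box CACGTG, was found in the windows of Malat1 (-43) and Kcnq1ot1 (-44 and 19, on the other strand), against 19.6% of all windows. Gas5 began with CTTTC, a C followed by at least 4 pyrimidines, the start of terminal oligopyrimidine RNAs. In all, 823 of the 32851 windows (2.51%) began this way, and so did 2 of 17 windows of other snoRNA host genes, those of Snhg7 and Snhg8. These matches describe sequence and were not linked to binding by any measurement here.

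Per kilobase of annotated exon, levels of the 9 transcripts spanned from 33.3 ± 10.7 CPM per kb (Malat1, SD, n = 3) to 0.023 CPM per kb (Kcnq1ot1) at low glucose. The length is that of all annotated exons of a gene merged, 20.8 kb for Neat1, 6.98 kb for Malat1 and 3.76 kb for Gas5. Where the counts come from shorter isoforms, this scale understates the level. Isoforms were not measured, so comparisons between genes depend on the annotated length. On this scale Malat1 and Neat1 were the most abundant in both conditions but in opposite order. By counts not divided by length, Neat1 was above Malat1 in every library, so the order at low glucose rests on the lengths used. At high glucose, Neat1 stood at 45.2 ± 18.6 CPM per kb (SD, n = 3) and Malat1 at 26.7 ± 7.64, whereas at low glucose Neat1 stood at 18.7 ± 5.37. Per kilobase, Malat1 was above Neat1 in each low-glucose library, and at high glucose Neat1 was above Malat1 in every library. Gas5 (11.1 ± 1.23 at low and 14.2 ± 4.15 at high glucose) and Meg3 (10.9 ± 7.18 and 8.93 ± 2.12) came next, and the difference between these neighbours was smaller than the SD of Meg3 at low glucose. Rian followed at 4.97 ± 2.15 and 5.65 ± 1.62 CPM per kb. Mirg (0.928 and 1.58) and Snhg11 (0.940 and 0.871) were close to each other at low glucose, and H19 and Kcnq1ot1 were lowest. Among 13970 genes with a length and a level, Neat1 lay at percentile 90.6 at low and 97.1 at high glucose, and Kcnq1ot1, an unspliced transcript annotated over 93.1 kb, lay at 0.22 and 0.42.

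**Figure D1:**
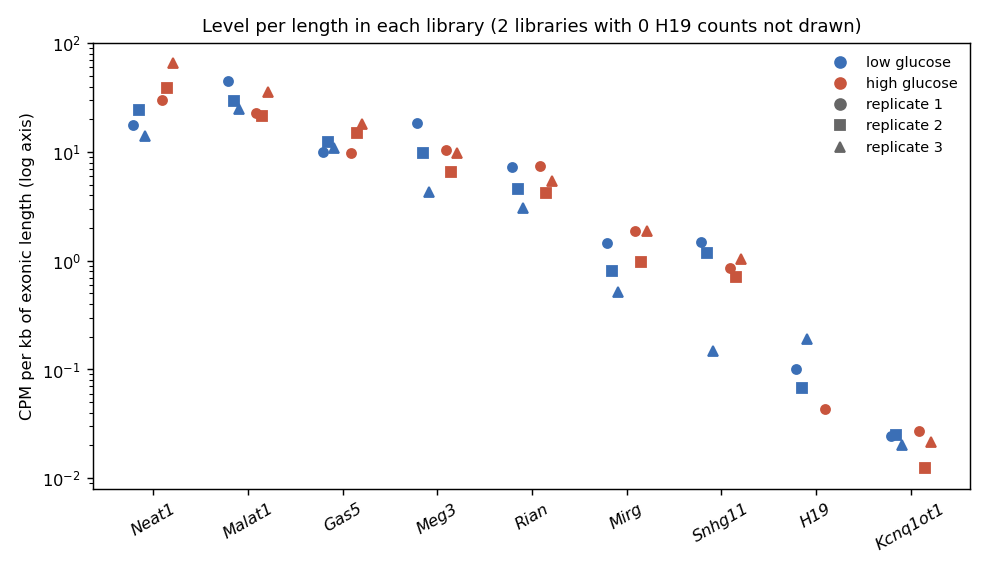
Levels of the 9 transcripts in CPM per kilobase of exon on a log axis, 1 point per library, with low and high glucose in different colours. Per kilobase, Neat1 passed Malat1 at high glucose, and Kcnq1ot1 and H19 lay far below the others. By counts not divided by length, Neat1 was above Malat1 in every library.

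Neat1 was the only 1 of the 8 tested transcripts that differed between the glucose conditions at an adjusted p under 0.05, and it was higher at high glucose. Neat1 lies on chromosome 19 (5824708 to 5845478, minus strand, GRCm38) in a single exon block. Its level was 366, 509 and 289 CPM in low-glucose libraries 1 to 3 and 630, 814 and 1370.2 CPM in high-glucose libraries 1 to 3. Every high-glucose library lay above every low-glucose library, and high-glucose library 3 was the highest. The log2 fold change was 1.27 ± 0.37 (SE), a fold of 2.42 with a 95% interval of 1.34 to 4.37 (edgeR, adjusted p = 0.0379). By level, Neat1 went from rank 126 to rank 51 among genes. The call depended on single libraries: the adjusted p was between 0.0659 and 0.124 when low-glucose library 1, 2 or 3 or high-glucose library 2 or 3 was left out, with log2 fold changes of 0.91 to 1.53, and 0.0120 without high-glucose library 1. With hormone and granule gene scaling the difference was 1.14 and did not pass (adjusted p = 0.186).

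Malat1, on the same chromosome and strand (5795690 to 5802672), gave no such difference. It measured 317, 207 and 174 CPM at low glucose and 160, 151 and 248 CPM at high glucose. The groups overlapped, with low-glucose library 1 highest and high-glucose library 2 lowest. The log2 fold change was -0.32 ± 0.30 (SE, 95% interval -1.02 to 0.37, edgeR adjusted p = 0.451), and with library totals it was 0.72, below the shift of all genes.

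A ratio of 2 transcripts counted in the same library does not depend on the scaling. The ratio of Neat1 to Malat1 counts was 1.16, 2.45 and 1.66 at low glucose and 3.93, 5.40 and 5.53 at high glucose. All 3 high-glucose libraries lay above all 3 low-glucose libraries, by 1.55 on the log2 scale. An exact two-sided permutation test gave p = 0.1 (0.133 after Benjamini-Hochberg adjustment over the 4 ratios computed), and 0.1 is the smallest p that 3 against 3 libraries allow. These ratios were chosen after the levels had been seen.

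**Figure D2:**
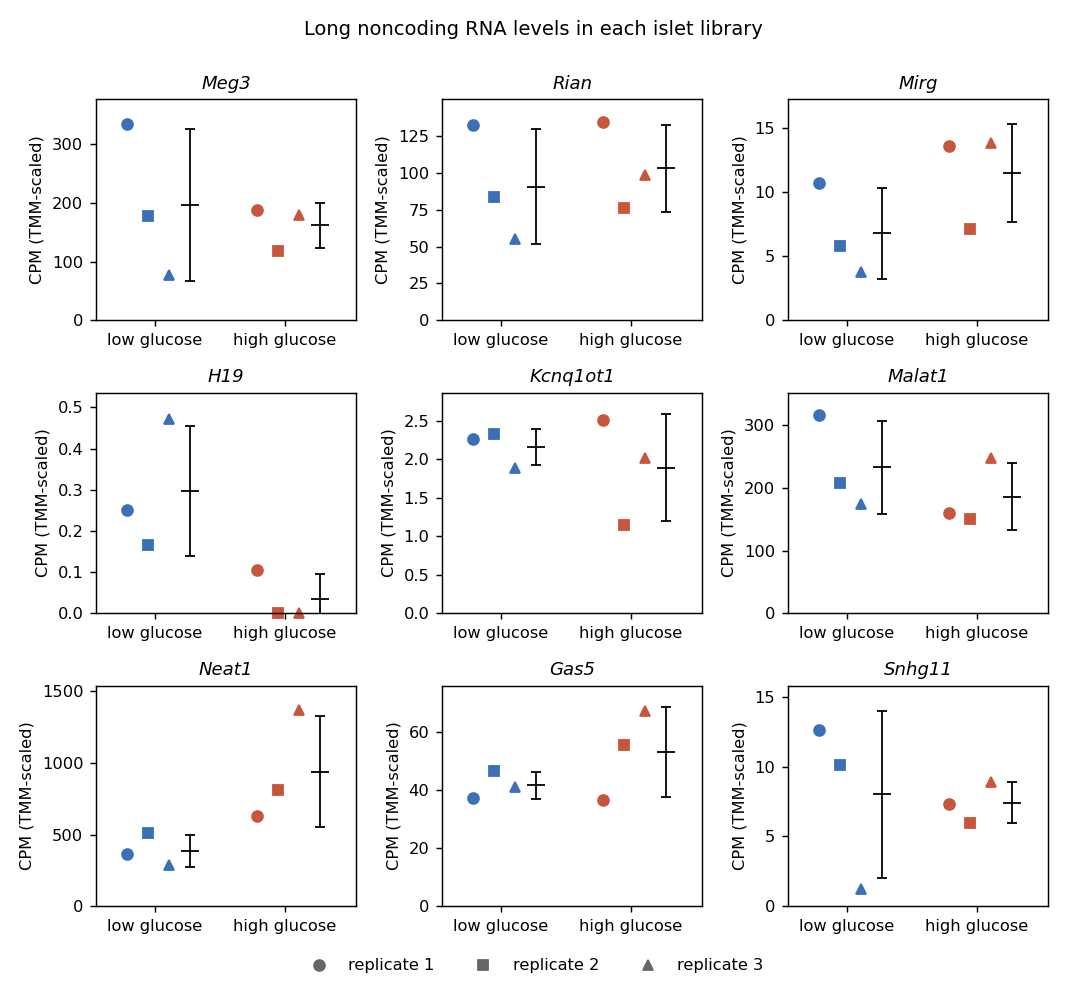
Level of each transcript in CPM (TMM-scaled, linear axes from 0) in 3 low-glucose (blue) and 3 high-glucose (red) libraries, with the symbol giving the replicate number and the bar the mean ± SD. The groups separate for Neat1 and for the sparsely counted H19, and overlap for the other 7.

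Frmd8, the protein-coding gene 4.22 kb from Neat1, had a log2 fold change of 0.61 ± 0.34 (SE) and did not pass the test (edgeR adjusted p = 0.210). A short unclassified gene on the opposite strand covers 6.49% of Malat1 and held 4 counts in all.

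Among 20 proteins of paraspeckles, the bodies that Neat1 organises, 9 were higher, 1 was lower and 10 did not pass at high glucose, with a median log2 fold change of 0.48; over all 13996 genes 13.3% were higher and 14.2% lower, with a median of 0.01. Rbm14, a paraspeckle protein with a prion-like domain, rose by 0.97 ± 0.20 on the log2 scale (SE, edgeR adjusted p = 0.0127). Cpsf6, a subunit of a 3′ end processing factor, rose by 0.74 ± 0.16. Both Sfpq and Pspc1, core paraspeckle proteins, were among those higher, at 0.66 ± 0.19 (edgeR adjusted p = 0.0405) and 0.94 ± 0.23, while Nono, which pairs with them, had 0.59 ± 0.21 and did not pass (0.0721). Hnrnpr fell by 0.52. These counts moved with the settings: 1 was higher without low-glucose library 2, 2 without high-glucose library 3, 3 without high-glucose library 2, 4 without low-glucose library 1 or 3, 0 with hormone and granule gene scaling (which calls 3.74% of all genes higher and 12.4% lower) and 18 with library totals (59.7% of all genes higher). Among all genes, 1861 were higher with all libraries, and 1102, 708 and 1282 without low-glucose library 1, 2 or 3. Without high-glucose library 1, 2 or 3 these numbers were 2793, 1103 and 827. Counts from lists without single libraries, here and below, are to be read against them.

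Of 22 nuclear speckle and SR splicing proteins, the compartment of Malat1, 1 was higher, 1 was lower and 20 did not pass, with a median log2 fold change of 0.03. The shares over all genes were 13.3% higher and 14.2% lower. Rnps1, a splicing activator of the exon junction complex, rose by 1.06 ± 0.18 (SE, edgeR adjusted p = 0.00625). Srsf6, an SR protein, fell by 0.96 with TMM scaling and had 0.20 with library totals. Srsf6 did not pass without low-glucose library 2 or high-glucose library 2 or 3, or as lower with library totals less the acinar markers. Neither Rnps1 nor Srsf6 passed with hormone and granule gene scaling. Here 13 were higher with library totals (59.7% of all genes higher), and 4 without high-glucose library 1 (19.8%).

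None of the 3 transcripts of the Dlk1-Dio3 domain on chromosome 12 passed the test, and they varied widely between libraries of the same group. Meg3 (109541001 to 109571726, plus strand) measured 335, 177 and 77.4 CPM at low glucose and 188, 118 and 179 CPM at high glucose. Low-glucose library 1 was the highest and low-glucose library 3 the lowest of all 6, a spread of 4.33-fold within the group, where the median gene had 1.43-fold. The log2 fold change was -0.28 ± 0.48 (SE, 95% interval -1.41 to 0.84, edgeR adjusted p = 0.691), and it was 0.35 without low-glucose library 1.

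Rian, downstream of Meg3 (109603940 to 109661716, plus strand), is the host of a snoRNA cluster. It measured 133, 83.8 and 55.5 CPM at low glucose and 135, 76.1 and 98.4 CPM at high glucose. The groups overlapped almost fully, and the order of libraries at low glucose was the same as for Meg3. Its log2 fold change was 0.18 ± 0.34 (SE, 95% interval -0.62 to 0.98, edgeR adjusted p = 0.726).

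Mirg, the host of a microRNA cluster at the end of the domain (109729764 to 109749460, plus strand), was far less abundant. It measured 10.7, 5.82 and 3.77 CPM at low glucose and 13.6, 7.09 and 13.8 CPM at high glucose. High-glucose libraries 1 and 3 were above all others, and high-glucose library 2 lay between the low-glucose values; by replicate number, Mirg was higher at high glucose in 3 of 3 pairs. The difference was 0.73 ± 0.42 on the log2 scale (SE, 95% interval -0.24 to 1.71, edgeR adjusted p = 0.226); with library totals it was 1.78 and passed (adjusted p = 0.0262), in a fit where 59.7% of all genes were higher and 4.49% lower.

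Shares within the domain do not depend on the scaling. Of the counts of the 3 transcripts together, Mirg took 2.24%, 2.18% and 2.76% at low glucose and 4.04%, 3.53% and 4.75% at high glucose. The groups did not overlap. Meg3 took 70.0%, 66.4% and 56.6% at low and 56.0%, 58.6% and 61.4% at high glucose, with overlap. The ratio of Mirg to Meg3 counts was 0.032, 0.033 and 0.049 at low glucose and 0.072, 0.060 and 0.077 at high glucose, higher by 0.90 on the log2 scale. Mirg to Rian was higher by 0.60, also without overlap, and Rian to Meg3 overlapped (exact two-sided permutation p = 0.4). For both Mirg ratios the exact permutation test gave p = 0.1, the smallest possible, and 0.133 after adjustment over the 4 ratios. With libraries paired by replicate number, a test added after seeing the data, no p below 0.25 is possible (exact two-sided sign-flip permutation test), and both Mirg ratios and the ratio of Neat1 to Malat1 were higher in 3 of 3 pairs, with that p. Mirg counts were small, between 24 and 384 per library.

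**Figure D3:**
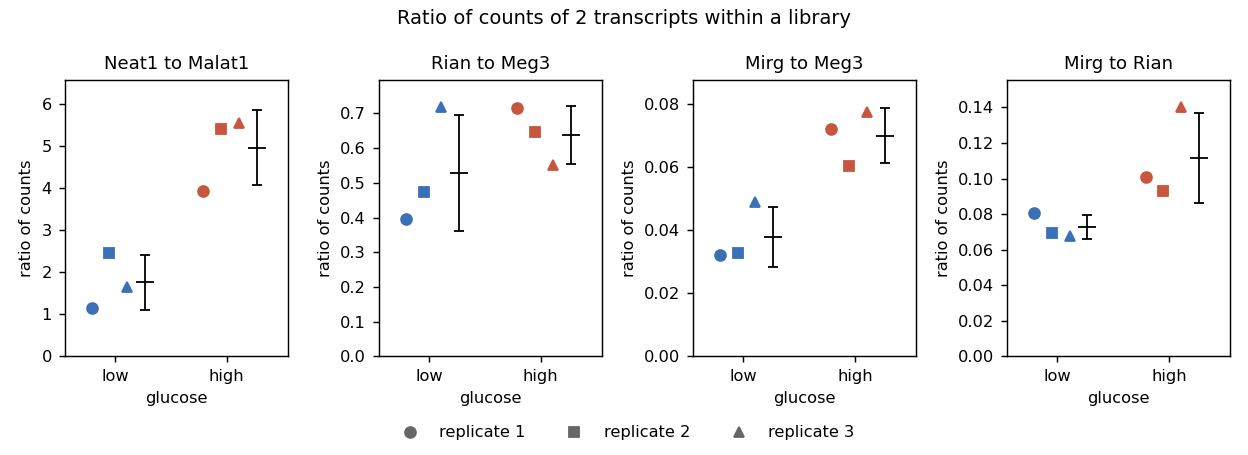
Ratios of raw counts of 2 transcripts within each library on linear axes from 0, with symbols for replicate numbers and bars for mean ± SD (n = 3). Neat1 to Malat1, Mirg to Meg3 and Mirg to Rian were higher in all 3 high-glucose libraries than in any low-glucose library, and Rian to Meg3 overlapped.

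At low glucose Meg3, Rian, Mirg, Malat1 and Snhg11 all had the same order of libraries, with library 1 highest and library 3 lowest. Neuron and Schwann cell markers summed to 119, 56.5 and 60.1 CPM in low-glucose libraries 1 to 3, which is not that order. At high glucose they summed to 89.6, 45.8 and 57.8 CPM. Markers of intestinal epithelium (6541, 5073 and 2353 CPM) did have that order at low glucose. So did those of alpha, delta and PP cells (7884, 5968 and 5679 CPM). Low-glucose library 1 was also the one with the lowest acinar share, 49.5%. The part of any of these cell types in the spread of these transcripts was not tested.

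The microRNAs and snoRNAs within these hosts were almost uncounted in these poly(A)-selected libraries. The 13 snoRNA genes inside Rian held 23 counts over all 6 libraries, its 4 microRNA genes 4 counts, and the 15 microRNA genes inside Mirg 17 counts. Those inside Meg3, H19, Gas5 and Snhg11 held 0. The levels of the small RNAs themselves were therefore not measured.

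Of 7 tested protein-coding genes listed for the Dlk1-Dio3 domain and its surroundings, 0 passed, where 27.5% of all genes were called. The number was 0 also at an unadjusted p under 0.05 with edgeR, and 0 with DESeq2 and limma-voom. Dlk1 was the only paternally expressed gene of the domain among those tested, so the count says little about the imprinted genes. With library totals 4 were higher, in a fit where 59.7% of all genes were. Dlk1, the paternally expressed gene 77.7 kb from Meg3, was sparsely counted, at 1.59, 0.166 and 0 CPM at low glucose and 2.12, 0.749 and 0.403 CPM at high glucose. Its group means were 0.585 and 1.09 CPM, with a log2 fold change of 0.67 ± 1.01 (SE). Wars, a tRNA synthetase gene of the same region, had a log2 fold change of -0.80 and passed when the replicate number was a block (adjusted p = 0.0295), and also without low-glucose library 1 (-1.21), but not in the unblocked fit of all 6 libraries (0.131). Rtl1 and Dio3, the other paternally expressed genes of the domain, were too low to test.

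H19 (chromosome 7, 142575529 to 142578143, minus strand), a maternally expressed growth-suppressing transcript, was barely counted. It had 3, 1 and 3 counts at low glucose and 3, 0 and 0 counts at high glucose. Only 1 high-glucose library held any count, and H19 fell below the filter on low counts. With TMM-scaled sizes the ratio of high to low glucose was 0.153, with an exact 95% interval for counting error of 0.026 to 0.67, and with library totals it was 0.336 (0.056 to 1.47).

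Igf2, the paternally expressed growth factor gene 72.6 kb from H19, fell. Its level was 4.18 ± 1.49 CPM at low glucose and 1.27 ± 0.614 CPM at high glucose (SD, n = 3). The log2 fold change was -1.72 ± 0.46 (SE, edgeR adjusted p = 0.0296). Leaving out any library other than high-glucose library 1 gave adjusted p values above 0.05, as did library totals (-0.60) and library totals less the acinar markers (-1.51). Among the 7 tested genes of the region, Th, the tyrosine hydroxylase gene, was also lower (-1.48 ± 0.43) and Syt8, a synaptotagmin gene, higher (2.17 ± 0.62, adjusted p = 0.0370; 0.0535 with the replicate number as a block, where the log2 fold change was 2.03). Th did not pass when any library other than high-glucose library 1 was left out, or with library totals, with or without the acinar markers. Syt8 did not pass without low-glucose library 1, 2 or 3, with DESeq2 or limma-voom or with hormone and granule gene scaling, and fell below the filter without high-glucose library 2 or 3. Ins2, an insulin gene next to Igf2, had a log2 fold change of -0.41 ± 0.51 and did not pass. In all, 1 of the 7 genes was higher and 2 were lower, where 13.3% of all genes were higher and 14.2% lower.

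Kcnq1ot1 (chromosome 7, 143203458 to 143296549, minus strand) is the antisense transcript that silences genes of the Kcnq1 domain on the paternal chromosome. It measured 2.26, 2.33 and 1.89 CPM at low glucose and 2.51, 1.15 and 2.02 CPM at high glucose, from 12 to 71 counts. The groups overlapped, with high-glucose library 1 highest and high-glucose library 2 lowest. Its log2 fold change was -0.19 ± 0.38 (SE, 95% interval -1.07 to 0.70, edgeR adjusted p = 0.747). Kcnq1, the potassium channel gene on the opposite strand, shares 121 exonic bases with it, and without a stated strand setting reads there cannot be assigned.

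Of 12 tested genes of the Kcnq1 domain, 1 was higher, 1 was lower and 10 did not pass, where 27.5% of all genes were called. With the replicate number as a block 3 were higher and 2 lower, against 2197 and 2473 of all 13996 genes. With library totals 7 were higher and 1 lower, where 59.7% of all genes were higher and 4.49% lower. Trpm5, the nearest gene on the far side of Kcnq1 and a calcium-activated cation channel of taste and beta cells, fell from 31.1 ± 6.09 to 5.05 ± 0.838 CPM (SD, n = 3), a log2 fold change of -2.62 ± 0.22 (SE, edgeR adjusted p = 7.11e-04). Osbpl5, an oxysterol-binding protein gene, rose by 1.15 ± 0.32 (adjusted p = 0.0346), which passed in no fit without low-glucose library 1, 2 or 3 or high-glucose library 2 or 3. It did not pass with limma-voom or with hormone and granule gene scaling either. Kcnq1 itself had a log2 fold change of -1.49 ± 0.55 and did not pass (0.0790), but did with the block (-1.65, adjusted p = 0.00363). Cars and Tssc4 also passed with the block (0.81 and 0.62) and not in the main unblocked fit (edgeR adjusted p = 0.0615 and 0.0503). Among other unblocked fits, 3 genes of the domain were higher with DESeq2 and 4 with no filter. Cdkn1c, the cell-cycle inhibitor on the other side, had 0.17 ± 0.51.

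Gas5 (chromosome 1, 161034422 to 161038539, plus strand), a growth-arrest transcript that is degraded by nonsense-mediated decay when translated, measured 37.5, 46.7 and 41.2 CPM at low glucose and 36.7, 55.8 and 67.6 CPM at high glucose. High-glucose libraries 2 and 3 lay above all low-glucose libraries, and high-glucose library 1 below them all. This gave a log2 fold change of 0.35 ± 0.23 (SE, 95% interval -0.19 to 0.89, edgeR adjusted p = 0.289). Without high-glucose library 1 it was 0.57 and passed (adjusted p = 0.0266), in a fit where 19.8% of all genes were higher and 20.5% lower, and with library totals it was 1.49 and passed (0.00218). Zbtb37, which overlaps the start of Gas5 on the opposite strand, shares no exonic base with it and had 0.50 ± 0.37.

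Snhg11 (chromosome 2, 158375638 to 158386145, plus strand), a host of 2 snoRNAs enriched in brain and endocrine cells, is listed as protein-coding in GENCODE M21. It measured 12.6, 10.1 and 1.26 CPM at low glucose and 7.36, 5.99 and 8.92 CPM at high glucose. Low-glucose library 3, with 8 counts, lay far below the other 5 libraries. Its log2 fold change was -0.13 ± 0.63 (SE, 95% interval -1.59 to 1.33, edgeR adjusted p = 0.892).

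**Figure D4:**
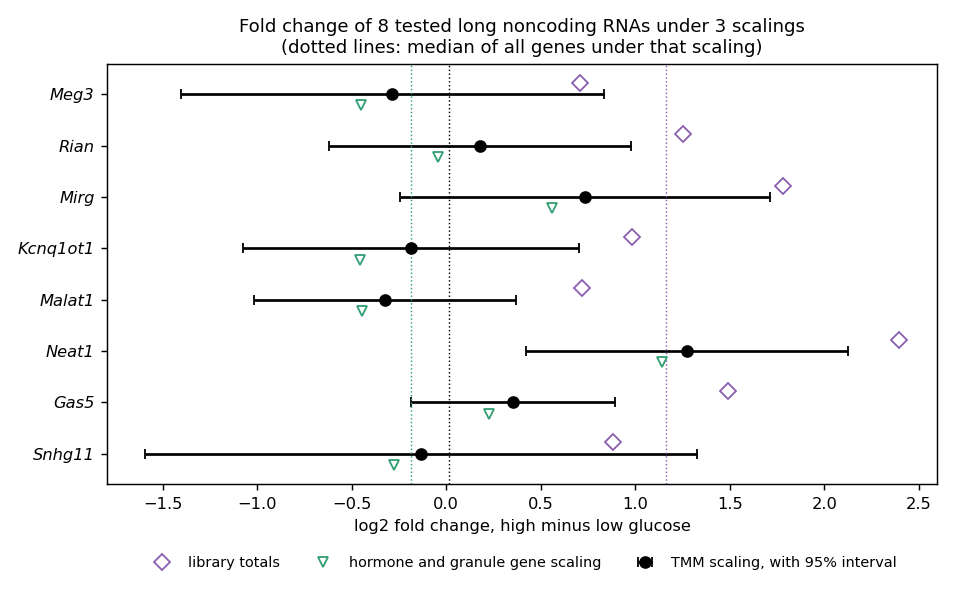
Log2 fold change (high minus low glucose) of the 8 tested transcripts with TMM scaling and 95% intervals, and with 2 other scalings, with dotted lines at the median of all genes under each scaling. The interval of Neat1 lies above 0 (0.42 to 2.13), and those of the other 7 include it.

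Over the 8 tested transcripts, 1 was higher, 0 were lower and 7 did not pass, where 13.3% of all genes were higher and 27.5% were called in either direction. The 0 lower holds for edgeR, DESeq2 and limma-voom and for all 17 alternatives run, and 1 transcript, Neat1, had an unadjusted p under 0.05. Fold changes were positive for 4 and negative for 4, with a median of 0.02. By TMM-scaled level, Neat1 was the only 1 of the 8 whose groups did not overlap, where 45.9% of all genes had groups without overlap, 23.5% of all genes being higher at high glucose. Among 431 tested genes of long noncoding biotypes, 23.0% were called, 33 higher (7.66%) and 66 lower, with a median of -0.24.

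Of 13 other snoRNA host genes tested, 4 were higher, 1 was lower and 8 did not pass, with a median log2 fold change of 0.68. The shares over all genes were 13.3% higher and 14.2% lower. Snhg6 rose by 1.31 ± 0.31 (SE, edgeR adjusted p = 0.0204) and 2410006H16Rik by 1.46 ± 0.37, and Snhg1 and Snhg5 were the other higher ones. Snhg18 fell by 1.48. No host passed as higher without low-glucose library 1 or 2 or high-glucose library 2 or 3 or with hormone and granule gene scaling, 1 did with limma-voom, 7 without high-glucose library 1 (19.8% of all genes higher) and 11 with library totals (59.7%).

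Of 12 snoRNP proteins, which bind the snoRNAs that such hosts release, 7 were higher and 5 did not pass, with a median log2 fold change of 0.91. The shares over all genes were 13.3% higher and 14.2% lower. Nop58 rose by 1.13 ± 0.18 (SE, edgeR adjusted p = 0.00446) and Nop56 by 0.96 ± 0.17, both core proteins of box C/D snoRNPs. Nufip1, an assembly factor, rose by 1.14 ± 0.23. The count was 3 without low-glucose library 2 or high-glucose library 3, 4 without low-glucose library 1 or high-glucose library 2, 0 with hormone and granule gene scaling and 12 with library totals (59.7% of all genes higher).

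Of 16 nonsense-mediated decay factors, the pathway that turns over Gas5, 4 were higher and 12 did not pass, with a median log2 fold change of 0.37. The shares over all genes were 13.3% higher and 14.2% lower. Smg5 rose by 0.67 ± 0.16 (SE, edgeR adjusted p = 0.0208), Magoh by 0.64 ± 0.16 and Rbm8a, its partner in the exon junction complex, by 0.58 ± 0.15. No factor passed without low-glucose library 1 or 2 or high-glucose library 2 or 3 or with hormone and granule gene scaling. As higher, 7 passed without high-glucose library 1 (19.8% of all genes higher), and 14 with library totals (59.7%).

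Genes that maintain imprints, with Polycomb genes, gave 5 higher, 1 lower and 14 not passing of 20, with a median log2 fold change of 0.17. The shares over all genes were 13.3% higher and 14.2% lower. Dnmt1, the maintenance DNA methyltransferase, rose by 0.69 ± 0.15 (SE, edgeR adjusted p = 0.0141) and Eed, a subunit of Polycomb repressive complex 2, by 1.00 ± 0.22. Tet1, a methylcytosine dioxygenase, fell by 1.83. Tet1 did not pass without low-glucose library 1 or 2 or high-glucose library 3, or with library totals. No gene was higher without low-glucose library 2 or with hormone and granule gene scaling, 1 was without high-glucose library 3, and 14 were with library totals (59.7% of all genes higher).

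Of 38 tested imprinted genes outside these 3 domains, 5 were higher, 6 were lower and 27 did not pass, with a median log2 fold change of -0.19; these counts lie near the shares of all genes, 13.3% higher and 14.2% lower. Inpp5f, a phosphoinositide phosphatase gene, rose by 2.42 ± 0.27 (SE, edgeR adjusted p = 0.00144) and Blcap by 1.09 ± 0.20. Ddc, the aromatic amino acid decarboxylase gene, fell by 2.09. With library totals 17 were higher and 0 lower (59.7% and 4.49% of all genes), and 1 was lower without high-glucose library 3.

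Of 15 other long noncoding RNAs, 3 were higher, 2 were lower and 10 did not pass, with a median log2 fold change of -0.34. Mir17hg, the host of the miR-17 to miR-92 cluster, rose by 2.83 ± 0.46 (SE, edgeR adjusted p = 0.00509) and Rmrp, the RNA of RNase MRP, by 2.75 ± 0.57. Both were sparsely counted at low glucose, with means of 0.711 CPM for Mir17hg and 0.219 CPM for Rmrp, against 5.35 and 1.47 CPM at high glucose. Peg13, an imprinted transcript, fell by 0.97 with TMM scaling and had 0.16 with library totals. Without high-glucose library 3, 1 was higher, and none was lower without it or without low-glucose library 1 or 2. With library totals none was lower and 7 were higher (4.49% and 59.7% of all genes). Over all genes 13.3% were higher and 14.2% lower. Tug1, an abundant nuclear transcript, had -0.03 ± 0.15 (adjusted p = 0.898).

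**Figure D5:**
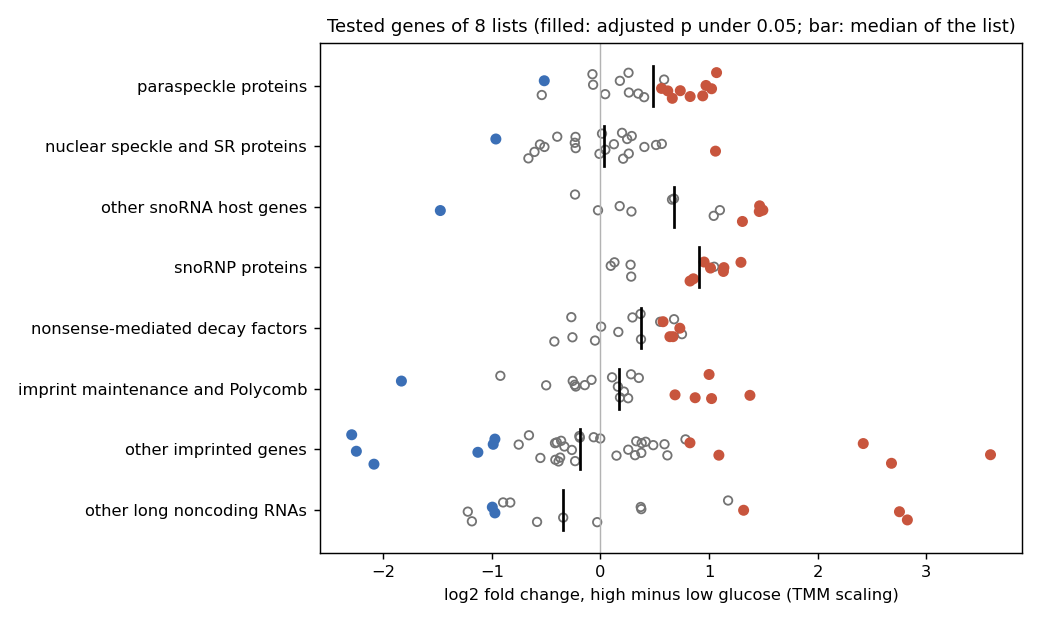
Log2 fold change (high minus low glucose, TMM scaling) of each tested gene of 8 lists, filled where the edgeR adjusted p was under 0.05, with a bar at the median of the list. The snoRNP proteins had the highest median (0.91) and the other long noncoding RNAs the lowest (-0.34).

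By log2 CPM over the 6 libraries, the genes whose levels ran closest to each transcript among 8221 genes differed from transcript to transcript. Meg3 ran with Zfp950 (Pearson r = 0.990), and Rian with Zfhx2 (0.985) and Celf3 (0.975). Mirg ran with Irf1 (0.977) and Gmip (0.976). Kcnq1ot1 ran with the endothelial gene Emcn (0.976) and with Csf2ra (0.972), and endothelial markers summed to between 183 and 383 CPM over the libraries. For Malat1 the closest were Tia1 (0.941) and the immediate-early gene Fos (0.940), for Neat1 Hes6 (0.983) and Ranbp3 (0.983), for Gas5 Elf2 (0.986) and Cd81 (0.986), and for Snhg11 Gpatch11 (0.979) and Ap5z1 (0.972). These values are the highest of many over only 6 libraries that share depth and scaling, and they are given as a description.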

How the data were processed

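The deposited values were whole-number counts of reads per gene, not normalized by the authors. STAR 2.7.3a, HTSeq 0.6.1p1 and the GRCm38 build are named in the submitters' processing notes; poly(A) selection started from 500 ng of RNA and 9 PCR cycles followed, per the labels' protocols. How strands, read filters and molecular barcodes were handled, and the annotation release, are not given in the sources used here, so intervals from counts cover counting error only.

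The labels gave the groups and replicate numbers, and no batch. Gene names, coordinates and exon lengths were taken from GENCODE M21 (GRCm38); 495 genes had no name and held 0.0141% of counts. Conditions were compared with the edgeR 4.0.16 quasi-likelihood F-test (R 4.3.3, TMM scaling, filterByExpr with a minimum count of 10 and a minimum total of 15, 13996 genes, Benjamini-Hochberg adjusted p under 0.05). Each SE is the log2 fold change over the square root of F. DESeq2 1.42.0, limma 3.58.1 and other scalings, filters and fits were alternatives. No pair of libraries within a group agreed within sampling noise (chi-square per degree of freedom at least 16.2). On simulated counts for 13996 genes, 17 of 100 genes changed 2-fold and 65 of 100 changed 4-fold were recovered, with 4 false calls.

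Same-numbered libraries deviated from their group means together (correlations 0.403, 0.257 and 0.254, against -0.306 to 0.0748 for other pairs). From the data alone, the numbers were therefore taken to pair the samples, but the main edgeR test did not use this pairing. Its SEs, intervals, adjusted p values and list counts are unpaired wherever no block is named. Entering the pairing as a block gave 4670 changed genes, against 3848 in the main test. No label states a pairing, and deviations of 3 libraries are not independent of each other. The transcripts and gene lists were chosen with earlier results of these data known. Genes named besides the 9 transcripts were their nearest protein-coding neighbours and overlapping genes, genes of the 3 imprinted domains, up to 3 changed genes of smallest p per list, and the 2 genes closest in log2 CPM (mean of at least 10 CPM). Some results of these genes are not reported here. Any others, Sfpq, Pspc1, Nono, Hnrnpr, Snhg1, Snhg5 and Tug1 among them, were chosen after their values were seen, as were the within-library ratios and the pyrimidine-start search.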

Additional observations from a re-analysis of the deposited data

How the results depend on the processing

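Over 17 alternatives and 50 named genes, the sign of Neat1 was positive in every fit, though it passed in 11, with log2 fold changes of 0.91 to 1.53 when single libraries were left out. The count of all changed genes was 3848, and 8978 with library totals, 2253 with hormone and granule gene scaling, 4433 with no filter, 4535 with DESeq2, 3446 with limma-voom and 4442 with totals less the acinar markers; leaving out a library gave 1743 to 5685. Of the 9 transcripts, 1 was higher. With library totals 3 were (Mirg, Neat1, Gas5), where 59.7% of all genes were higher. The number was 0 with hormone and granule gene scaling (3.74% of all genes higher) and 0 to 2 without single libraries. With the replicate number as a block, 4670 genes changed, and among the 9 transcripts the block changed no call. Of the named genes, the calls that it changed are given beside Wars, Syt8, Kcnq1, Cars and Tssc4, and it also called Ctsd (higher).

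Signs turned as follows. With library totals, Meg3 (0.71), Kcnq1ot1 (0.98), Malat1 (0.72), Snhg11 (0.88), Lbp (0.79), Wars (0.36), Peg13 (0.16) and Srsf6 (0.20) turned positive, by the construction of that scaling, which raises the median of all genes to 1.16. With totals less the acinar markers, Kcnq1ot1 (0.024) and Snhg11 (0.010) did so, with a median of 0.22. Snhg11 gave 0.22 with limma-voom and 0.084 with the block, Cdkn1c -0.16 and -0.076, and Rian -0.043 with hormone and granule gene scaling. When single libraries were left out, log2 fold changes ranged from -0.64 to 0.35 for Meg3, -0.060 to 0.57 for Rian, -0.45 to 0.077 for Kcnq1ot1, -0.61 to 0.39 for Snhg11, -0.32 to 3.67 for Dlk1, -0.42 to 0.57 for Cdkn1c and -0.57 to 0.13 for Lbp. Apart from the scaling shifts, the cause was not tested. The depth limits H19, at 10 counts in all, and Kcnq1ot1 and Mirg, with as few as 12 and 24 counts in a library. Among other named genes, Syt8, Rmrp, Dlk1 and Mir17hg had means of 0.164, 0.219, 0.585 and 0.711 CPM at low glucose.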
